A study of Rattus norvegicus with 9 samples.

Results

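Complex I is the NADH dehydrogenase of the mitochondrial respiratory chain, and the genes described here are its subunits and assembly factors in rat left ventricle. They were taken by name, as every gene whose symbol begins with Nduf followed by a, b, c, s, v, ab or af and a number, with a mean level of at least 1 CPM (estimated counts relative to the scaled library total, on the usual CPM scale). The rule found 45 of the 22608 gene names in the tables, and all 45 passed the filter on low counts. They comprised 36 subunits (7 catalytic core and 29 accessory), the 7 assembly factors Ndufaf1 to Ndufaf7, and Ndufa4 with its paralog Ndufa4l2, which are treated apart because Ndufa4 is now assigned to complex IV. Counted among the 29 accessory subunits are Ndufa10l1, a copy of Ndufa10, and the row named Ndufs6, whose identity is uncertain. The 45 genes were chosen by name and this minimum level, with earlier results of these data known.

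The study sequenced left ventricular RNA from Sprague-Dawley rats, aged 8 weeks at the start, after 28 days of treatment. There were 3 groups of 3 libraries: rats given saline, rats given angiotensin II (Ang II, the main pressor peptide of the renin system), and rats given Ang II with sodium butyrate (NaBu, a salt of butyrate, which is made by gut bacteria and blocks histone deacetylases). The labels give no dose, nor whether replicate libraries are different animals, so each p-value measures only the spread between these samples, which may be technical. The NaBu libraries are numbered 2, 4 and 6, as their columns are. The design text of the series speaks of strained tendon, which matches neither its title nor its samples, so tissue and groups are as the sample labels give them.

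Complex I takes electrons from NADH to ubiquinone and pumps protons out of the mitochondrial matrix, and in the heart it feeds most of the electrons that drive ATP synthesis. Its peripheral arm holds the N module, which oxidises NADH, and the Q module, which reduces ubiquinone, while its membrane arm has a proximal and a distal part that move protons. Core subunits carry the flavin and the iron-sulfur clusters, accessory subunits surround them, and assembly factors help to build the enzyme and are absent from the finished complex.

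Total estimated counts ran from 29284780 to 49865446 per library. The 16 ventricular cardiomyocyte markers were detected in every library, with summed levels from 63823 to 106812 CPM. Saline replicate 2 stood apart: its 10 atrial markers summed to 6039 CPM against 111 to 361 CPM in the other 8 libraries, its 12 fibroblast markers to 6575 CPM against 3942 to 5223 CPM, and its ventricular markers to 63823 CPM, the lowest of the 9. Mitochondrial ribosomal RNA took 9.8% to 16.04% of the counts in saline, 8.14% to 11.92% in Ang II and 6.51% to 7.71% in NaBu libraries. Each group was deposited as a table of its own, so effects of separate processing and of treatment cannot be told apart.

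Most complex I subunits shared the library of their lowest level, and many that of their highest. The 45 summed levels were 6212, 3947 and 6711 CPM in saline replicates 1, 2 and 3, 5060, 6089 and 6134 CPM in Ang II replicates 1, 2 and 3, and 7284, 7156 and 8027 CPM in NaBu replicates 2, 4 and 6. All 3 NaBu libraries lay above the other 6, and saline replicate 2 was the lowest. Of the 36 subunits, 32 had their lowest level in saline replicate 2 and 23 their highest in NaBu replicate 6. Another 8 were highest in saline replicate 3, and 3 were lowest in Ang II replicate 1. Relative to each gene's mean over the 9 libraries, the median subunit stood at -0.61 (log2) in saline replicate 2 and at -0.31 in Ang II replicate 1. It stood between 0.00 and 0.15 in the other saline and Ang II libraries and between 0.17 and 0.34 in the NaBu libraries. The heat map of members by library shows this as blue columns for saline replicate 2 and Ang II replicate 1 and warm columns for NaBu.

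**Figure D1:**
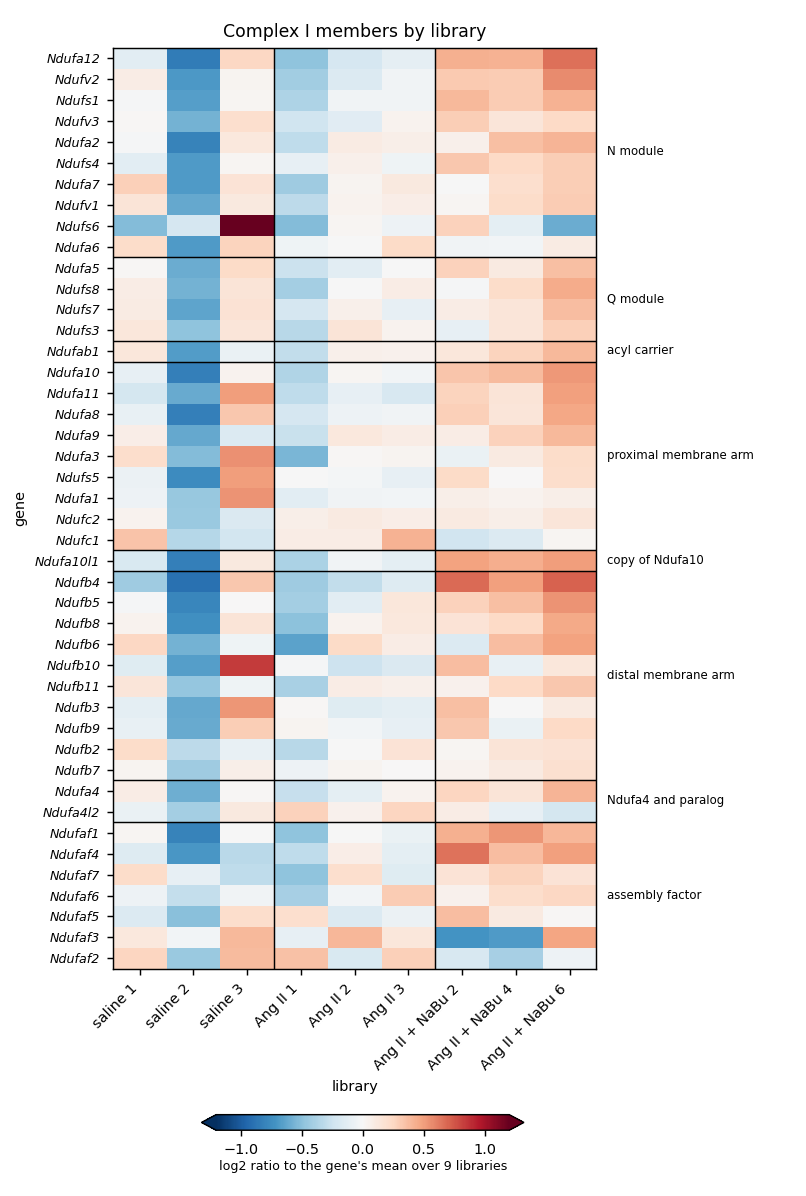
Heat map of 44 of the 45 genes (vertical axis, grouped by role) in the 9 libraries (horizontal axis). Colour gives the log2 ratio of a gene's CPM to its mean over the libraries. Most subunits are lowest in saline replicate 2, and the median subunit lies between 0.17 and 0.34 in the NaBu libraries. Ndufs6 and Ndufaf3 have their lowest level in a NaBu library, and Ndufb10 and Ndufaf2 have their highest in saline replicate 3.

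Ang II compared with saline asks how the pressor treatment alone was associated with these transcripts. No complex I gene passed the test. Differences of the 36 subunits centred on 0.02 (median log2), with 21 higher and 15 lower, beside a median of -0.00 over all 15467 genes tested. The 7 core subunits lay between -0.05 and 0.04. edgeR called 0 of the 45 at an adjusted p under 0.05, 0 had an unadjusted p under 0.05, and DESeq2 also called 0. Over all 15467 genes in this comparison, edgeR called 0%, 918 had an unadjusted p under 0.05, and DESeq2 called 57. The lowest adjusted p was 0.839, for Ndufc2.

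Only Ndufc2, a small membrane-arm subunit, had groups that did not overlap in this comparison. Its levels were 136, 97 and 117 CPM in saline and 138, 142 and 139 CPM in Ang II replicates, a log2 difference of 0.26 (SE 0.118). Over all genes, 4.94% were higher and 4.97% lower without overlap, beside 2.22% and 0% of the 45. Ndufc1, its neighbour in the proximal membrane arm, differed by 0.25 (SE 0.179, adjusted p = 0.933), with overlapping groups.

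The 2 subunits furthest below saline changed sign without saline replicate 3. Ndufb10, a distal membrane arm subunit, was at 80.9, 56.4 and 161 CPM in saline and 89.1, 75.3 and 79.5 CPM in Ang II replicates. Its log2 difference was -0.29 (SE 0.308, adjusted p = 0.962), and 0.24 without saline replicate 3. The gene named Ndufs6 was at 0.9, 1.25 and 6.09 CPM in saline and 0.903, 1.54 and 1.43 CPM in Ang II replicates, with a log2 difference of -1.07 (SE 0.674, adjusted p = 0.918) that became 0.26 without that library. RefSeq lists this symbol as an older name of a pseudogene, so the row may not hold the N module subunit, and its identity is uncertain.

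The near-zero median rested on opposite saline libraries. Without saline replicate 2 the subunit median was -0.18, with 4 of 36 higher, and without saline replicate 3 it was 0.19, with 34 of 36 higher. No member was called in either case.

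Ang II with NaBu compared with Ang II alone asks what adding butyrate was associated with. Here 34 of 36 subunits were higher on average with NaBu, by a median log2 of 0.30 (range -0.33 to 0.92), beside -0.02 over all genes, of which 7318 of 15467 were higher. No single member passed the adjusted test with all 3 groups in the fit. edgeR called 0 of the 45, beside 1.60% of all genes in either direction. The lowest adjusted p was 0.0672, for Ndufaf4. At an unadjusted p under 0.05, 11 of the 45 were higher (24.4%, beside 11.3% of all genes) and 0 were lower. The NaBu libraries all lay above the Ang II libraries for 22 of the 45 (48.9%, beside 18.1% of all genes) and all below them for 1 (2.22%, beside 17.5%).

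The count of calls depended on the libraries in the fit and on the tool. With only the 2 groups compared in the fit, 16 of the 45 were called, all higher (35.6%, beside 7.12% of all genes). Without saline replicate 2, 13 were called (28.9%, beside 6.16%), without saline replicate 3 only Ndufb4 was (2.22%, beside 1.71%), and with DESeq2 on all libraries 8 were (17.8%, beside 5.64%). The 8 were Ndufa10, Ndufa10l1, Ndufa12, Ndufaf1, Ndufaf4, Ndufb4, Ndufs1 and Ndufv2.

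**Figure D2:**
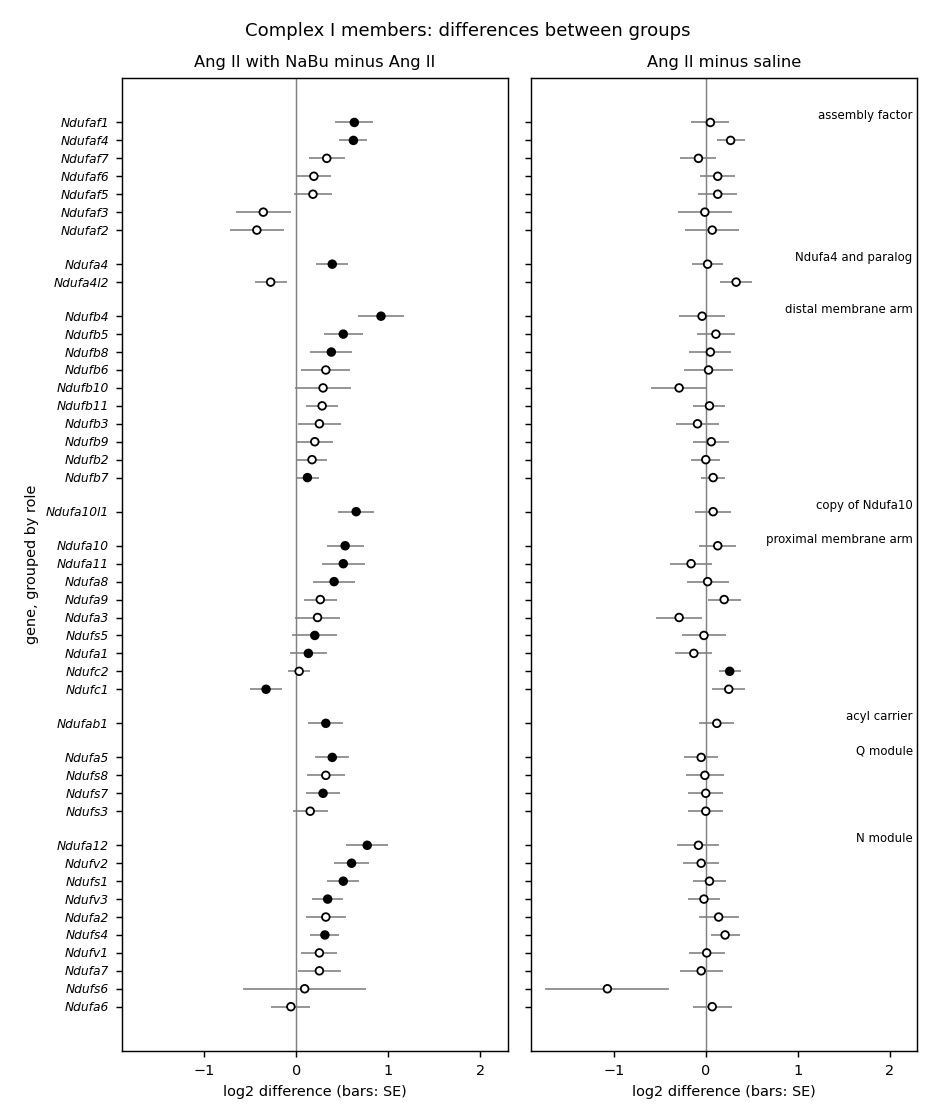
Log2 difference of each of 44 of the 45 genes (points; bars are the SE, 3 libraries a group), grouped by role, for Ang II with NaBu minus Ang II (left) and Ang II minus saline (right). Filled points mark genes whose groups do not overlap: 22 on the left and 1 on the right. The medians of all 45 are 0.29 on the left and 0.03 on the right.

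All 7 core subunits were higher on average with NaBu, by 0.15 to 0.60 (log2). Higher without overlap were 4 of the 7, beside 18.1% of all genes. In the N module, Ndufs1, which carries iron-sulfur clusters, was at 876, 559 and 903 CPM in saline, 684, 862 and 862 CPM in Ang II, and 1158, 1095 and 1186 CPM in NaBu libraries. Every NaBu library exceeded the other 6. The means were 802 ± 103 CPM with Ang II and 1146 ± 46.5 CPM with NaBu (SD, n = 3 each), a log2 difference of 0.51 (SE 0.176, adjusted p = 0.132).

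Ndufv2, which holds another iron-sulfur cluster of the N module, was at 394, 229.6 and 378 CPM in saline, 278, 331 and 360.4 CPM in Ang II, and 462, 458 and 549 CPM in NaBu libraries. The NaBu group again lay wholly above the rest, with a log2 difference from Ang II of 0.60 (SE 0.194, adjusted p = 0.115), the largest among core subunits. Ndufv1, which binds NADH and the flavin, was at 435, 256 and 426 CPM in saline, 314, 402 and 413 CPM in Ang II, and 397, 455 and 485 CPM in NaBu libraries. Its groups overlapped, and its difference of 0.25 (SE 0.197, adjusted p = 0.501) was within the replicate spread.

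In the Q module, Ndufs7, which holds an iron-sulfur cluster next to ubiquinone, was at 116, 69.6 and 122 CPM in saline, 93.8, 113 and 101 CPM in Ang II, and 115, 120.0 and 139.9 CPM in NaBu libraries. Every NaBu library was above every Ang II library, with a log2 difference of 0.29 (SE 0.188, adjusted p = 0.401). Against saline the difference was 0.29 (SE 0.189, adjusted p = 0.379), with overlapping groups.

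Ndufs8, which carries iron-sulfur clusters, was at 88.6, 56.1 and 92.7 CPM in saline, 62.9, 83.3 and 89.1 CPM in Ang II, and 82.5, 97.2 and 114 CPM in NaBu libraries. Ndufs3, a core subunit without a cluster, was at 150.3, 97.6 and 151 CPM in saline, 108, 152 and 140.3 CPM in Ang II, and 127, 151 and 166 CPM in NaBu libraries. The groups of both overlapped, with log2 differences from Ang II of 0.32 (SE 0.204, adjusted p = 0.389) and 0.15 (SE 0.189, adjusted p = 0.674).

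Of the 29 accessory subunits, 27 were higher on average with NaBu than with Ang II, with a median of 0.29 and a range from -0.33 to 0.92. The medians by structural part were 0.32 for the N module (9 of 10 higher), 0.32 for the Q module (5 of 5), 0.23 for the proximal membrane arm (8 of 9) and 0.28 for the distal membrane arm (10 of 10), core subunits included. Ndufab1, the mitochondrial acyl carrier protein, differed by 0.32 (SE 0.189, adjusted p = 0.353).

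The largest difference was that of Ndufb4, an accessory subunit of the distal membrane arm. It was at 98.4, 70.8 and 166 CPM in saline, 98.7, 108 and 119 CPM in Ang II, and 212, 186 and 217 CPM in NaBu libraries. The NaBu group lay above both others, and saline replicate 3 was closest to it. Means were 112 ± 49.1, 108 ± 10 and 205 ± 16.5 CPM (SD, n = 3 each), and the log2 difference from Ang II was 0.92 (SE 0.249, adjusted p = 0.0826). RefSeq lists 7 pseudogenes and 4 like-named copies of Ndufb4, and the handling of shared reads is not given in the sources used here, which leaves its level uncertain.

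Next came Ndufa12, an accessory subunit at the junction of the N and Q modules. Its levels were 50.9, 31 and 66.2 CPM in saline, 39.7, 48.3 and 51.7 CPM in Ang II, and 75.1, 74.6 and 88.6 CPM in NaBu libraries. NaBu lay above all 6 other libraries, by 0.77 (SE 0.229, adjusted p = 0.0968) over Ang II. Ndufa10, a membrane-arm subunit related to nucleoside kinases, and its copy Ndufa10l1 differed by 0.53 (SE 0.2, adjusted p = 0.162) and 0.65 (SE 0.198, adjusted p = 0.101), both without overlap. Reads of this pair may be shared.

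Ndufc1 and Ndufa6 were the subunits on the other side. Ndufc1, a small subunit of the proximal membrane arm, was at 37.7, 23.4 and 25.4 CPM in saline, 31.6, 31.7 and 39.8 CPM in Ang II, and 25.2, 26.4 and 30.2 CPM in NaBu libraries. All 3 NaBu values were below all 3 Ang II values, a log2 difference of -0.33 (SE 0.178, adjusted p = 0.302) that did not pass the test. Ndufa6, an LYR-motif protein that binds the acyl carrier protein, was at 78.6, 41.7 and 81 CPM in saline, 64.8, 67.3 and 79 CPM in Ang II, and 65.5, 65.6 and 72 CPM in NaBu libraries. Its groups overlapped and it differed by -0.06 (SE 0.211, adjusted p = 0.911). Measured against the median subunit of the same library, Ndufb4 was 0.63 and Ndufa12 0.48 higher (log2) with NaBu than with Ang II, and Ndufc1 was at -0.61 and Ndufa6 at -0.34.

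**Figure D3:**
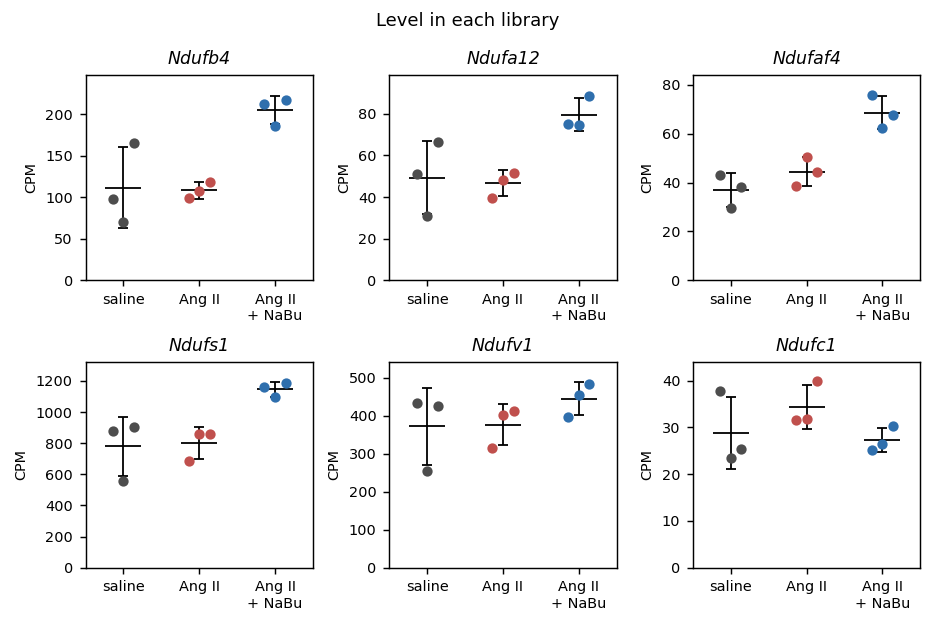
CPM (vertical axis, from 0) of 6 complex I genes in each library (points), by group (horizontal axis). The long bar is the mean and the whiskers 1 SD (n = 3). Ndufb4, Ndufa12, Ndufaf4 and Ndufs1 have every NaBu point above all others, Ndufv1 overlaps, and Ndufc1 has its NaBu points below its Ang II points.

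The assembly factors split. Ndufaf4 and Ndufaf1 were higher in every NaBu library than in any other, 3 more were higher on average with overlapping groups, and Ndufaf2 and Ndufaf3 were lower on average. The median of the 7 was 0.19 against Ang II. Ndufaf4, which works with Ndufaf3 on early intermediates of the peripheral arm, was at 42.9, 29.4 and 38.3 CPM in saline, 38.7, 50.6 and 44.1 CPM in Ang II, and 75.6, 62.2 and 67.6 CPM in NaBu libraries. Its log2 difference from Ang II was 0.62 (SE 0.152, adjusted p = 0.0672). RefSeq lists 5 pseudogenes of it.

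Ndufaf1, a part of the membrane-arm assembly machinery, was at 37.2, 20.8 and 36.6 CPM in saline, 26.1, 36.6 and 34.7 CPM in Ang II, and 49.5, 53 and 48.5 CPM in NaBu libraries. The difference from Ang II was 0.63 (SE 0.206, adjusted p = 0.117). Ndufaf3 did not follow Ndufaf4: it was at 29.8, 26.6 and 35.7 CPM in saline, 25.4, 35.9 and 30 CPM in Ang II, and 16.3, 16.8 and 37.9 CPM in NaBu libraries. NaBu replicates 2 and 4 were the lowest of the 9 and NaBu replicate 6 the highest, and the difference of -0.36 (SE 0.296, adjusted p = 0.513) was within that spread.

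Ndufaf2, a paralog of Ndufa12 that holds its place during assembly, was at 4.29, 2.45 and 4.7 CPM in saline, 4.61, 3.02 and 4.37 CPM in Ang II, and 3.01, 2.54 and 3.35 CPM in NaBu libraries. Its groups overlapped (-0.43, SE 0.291, adjusted p = 0.418), while Ndufa12 was higher in all NaBu libraries. Ndufaf7, a methyltransferase of the mitochondrial matrix, was at 15.1, 12 and 10.3 CPM in saline, 9.03, 14.9 and 11.6 CPM in Ang II, and 14.5, 15.6 and 14.5 CPM in NaBu libraries (0.33 over Ang II, SE 0.194, adjusted p = 0.353).

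Ndufaf5, which modifies Ndufs7, was at 7.02, 5.43 and 9.21 CPM in saline, 9.15, 7.03 and 7.53 CPM in Ang II, and 10.4, 8.54 and 8.01 CPM in NaBu libraries. Ndufaf6, an early assembly factor, was at 8.43, 7.16 and 8.55 CPM in saline, 6.59, 8.65 and 11 CPM in Ang II, and 9.19, 10.3 and 10.6 CPM in NaBu libraries. Both overlapped, with differences from Ang II of 0.18 (SE 0.211, adjusted p = 0.652) and 0.19 (SE 0.19, adjusted p = 0.59).

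Ndufa4 and its paralog differed in sign. Ndufa4 was at 316, 197 and 300.2 CPM in saline, 244, 274 and 305 CPM in Ang II, and 355, 331 and 394 CPM in NaBu libraries, above every other library with NaBu (0.39 over Ang II, SE 0.172, adjusted p = 0.215). Ndufa4l2, known as a gene induced by hypoxia, was at 8.25, 6.49 and 9.55 CPM in saline, 10.7, 9.12 and 10.6 CPM in Ang II, and 9.36, 8.15 and 7.51 CPM in NaBu libraries. Its groups overlapped, with -0.28 (SE 0.173, adjusted p = 0.367) for NaBu against Ang II and 0.33 (SE 0.174, adjusted p = 0.888) for Ang II against saline.

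Start-site windows of 4 members are shown because Ndufb4, Ndufa12 and Ndufaf4 had the 3 lowest adjusted p-values of the 45 for NaBu against Ang II and Ndufs1 is the core subunit described above. RefSeq (assembly GRCr8) gave windows for 39 members, each 300 bases long, from 250 before to 50 after the gene start, written 5′ to 3′ on the gene's strand. Capitals mark a matched motif.
Ndufb4, chr11:76568928-76569227, + strand: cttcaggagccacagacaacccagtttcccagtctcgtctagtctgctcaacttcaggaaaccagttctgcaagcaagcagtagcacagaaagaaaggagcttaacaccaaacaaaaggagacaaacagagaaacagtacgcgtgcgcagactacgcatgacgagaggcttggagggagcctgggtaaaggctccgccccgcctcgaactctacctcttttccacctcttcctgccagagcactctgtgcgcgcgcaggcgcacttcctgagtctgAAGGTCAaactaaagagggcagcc
Ndufa12, chr7:30658066-30658365, + strand: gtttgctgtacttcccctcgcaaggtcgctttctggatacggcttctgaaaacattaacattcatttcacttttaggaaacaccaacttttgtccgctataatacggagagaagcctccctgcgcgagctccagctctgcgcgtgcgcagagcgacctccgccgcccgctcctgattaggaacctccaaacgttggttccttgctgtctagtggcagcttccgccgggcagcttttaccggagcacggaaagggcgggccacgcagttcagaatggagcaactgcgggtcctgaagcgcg
Ndufaf4, chr5:43401545-43401844, + strand: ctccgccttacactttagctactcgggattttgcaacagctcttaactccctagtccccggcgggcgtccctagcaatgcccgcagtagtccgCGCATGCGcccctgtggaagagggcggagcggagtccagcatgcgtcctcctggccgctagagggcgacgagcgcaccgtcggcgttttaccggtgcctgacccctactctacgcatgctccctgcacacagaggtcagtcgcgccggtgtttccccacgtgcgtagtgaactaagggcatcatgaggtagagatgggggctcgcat
Ndufs1, chr9:72073556-72073855, - strand: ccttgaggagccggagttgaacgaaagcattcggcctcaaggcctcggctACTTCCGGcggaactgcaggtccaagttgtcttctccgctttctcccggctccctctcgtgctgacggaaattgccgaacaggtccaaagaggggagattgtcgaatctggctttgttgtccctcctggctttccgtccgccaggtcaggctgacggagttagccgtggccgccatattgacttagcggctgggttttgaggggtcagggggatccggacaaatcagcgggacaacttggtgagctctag

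Motifs were searched by their letters on both strands in these windows and in all 33469 RefSeq windows of that length. The NRF1 letters CGCATGCG, which read the same on both strands, occurred in 3 of 39 member windows (7.69%; Ndufa11, Ndufaf4 and Ndufaf5) beside 1.66% of all windows. The GABP letters CCGGAAGT (ACTTCCGG on the other strand) occurred in 2 (5.13%; Ndufb7 and Ndufs1) beside 3.81%. The YY1 letters AAGATGGC occurred in 8 (20.5%; Ndufa2, Ndufa3, Ndufa4l2, Ndufa6, Ndufa9, Ndufb8, Ndufs4 and Ndufs7) beside 3.17%. The estrogen-related receptor letters TCAAGGTCA occurred in 0 beside 0.433%, and their shorter core AAGGTCA, which any longer match also contains, in 3 (7.69%; Ndufb2, Ndufb4 and Ndufs5) beside 4.61%. In the windows above, the match of Ndufaf4 began 157 bases before the start, that of Ndufs1 200 bases before and that of Ndufb4 27 bases after, and Ndufa12 had none. A match describes letters only. Members with a match lay at either end of the differences: Ndufb4 and Ndufaf4 among the largest, Ndufa6 among the smallest.

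Ang II with NaBu was also compared with saline, in a comparison that shares its NaBu libraries with the one above. The assembly factor Ndufaf4 rose, and no subunit passed the test. edgeR called 1 of the 45, Ndufaf4 (2.22% higher, beside 3.01% of all genes higher and 5.06% in either direction). The mean of Ndufaf4 was 36.9 ± 6.84 CPM in saline and 68.5 ± 6.74 CPM with NaBu (SD, n = 3 each), a log2 change of 0.89 (SE 0.153, adjusted p = 0.0201), and all 3 NaBu libraries lay above all 3 saline libraries. The log2 change was 0.68 to 1.02 over the alternatives run, with adjusted p from 8.49e-06 to 0.108. The call was lost without NaBu replicate 2 (0.0785), without NaBu replicate 6 (0.108), with only the 2 groups in the fit (0.0707), with the highest transcript per gene (0.0926) and without saline replicates 2 and 3 (0.0907).

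The subunits again lay to the higher side of saline, by a median of 0.32 with 32 of 36 higher, beside -0.05 over all genes. This median was 0.14 without saline replicate 2 and 0.49 without saline replicate 3. Groups did not overlap for 17 of the 45, all higher (37.8%, beside 14.5% of all genes), and for 0 lower (beside 14.1%). At an unadjusted p under 0.05, 15 were higher (33.3%, beside 12.4%). DESeq2 called 10 (22.2%, beside 8.02%), and without saline replicate 3 edgeR called 7 (15.6%, beside 4.86%).

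The subunit ends of this comparison were Ndufb4 at 0.88 (SE 0.249, adjusted p = 0.068) and Ndufa10l1 at 0.73 (SE 0.198, adjusted p = 0.0613), both without overlap. Ndufa10l1 was at 42.8, 27.5 and 53.1 CPM in saline, 37.4, 47.5 and 44.9 CPM in Ang II, and 68.4, 66 and 69.5 CPM in NaBu libraries. The lower ends were Ndufs6, of uncertain identity, at -0.99 (SE 0.672, adjusted p = 0.401; 0.36 without saline replicate 3) and Ndufc1 at -0.08 (SE 0.179, adjusted p = 0.825). The NaBu levels of Ndufs6 were 1.94, 1.36 and 0.832 CPM, within the saline range of 0.9 to 6.09 CPM but for the lowest library. Ndufc2 differed by 0.28 (SE 0.118, adjusted p = 0.173).

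Complex I assembly factors named otherwise (11 genes) were all higher on average with NaBu, 11 of 11 against either group, with medians of 0.40 against Ang II and 0.47 against saline. edgeR called 1 and 3 of them, all higher, where 0.647% and 3.01% of all genes were called higher. Tmem126a, an assembly factor of the membrane arm, was at 33.6, 22.7 and 37.4 CPM in saline, 29.8, 33.3 and 33.9 CPM in Ang II, and 57.3, 54.6 and 67.1 CPM in NaBu libraries. It rose by 0.88 (SE 0.168, adjusted p = 0.0427) over Ang II and 0.94 (SE 0.169, adjusted p = 0.0218) over saline.

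Lyrm2, which helps to place the N module, was at 21.6, 19.7 and 26.9 CPM in saline, 28.1, 28.1 and 30.9 CPM in Ang II, and 41.4, 34.4 and 41 CPM in NaBu libraries, and rose by 0.78 (SE 0.132, adjusted p = 0.0201) over saline. Tmem70, which assists complex V and complex I, was at 51.9, 36.9 and 53 CPM in saline, 43.6, 61.1 and 62.9 CPM in Ang II, and 77.1, 79.5 and 78.1 CPM in NaBu libraries, and rose by 0.73 (SE 0.166, adjusted p = 0.0378) over saline. Against Ang II these differed by 0.42 (adjusted p = 0.106) and 0.49 (adjusted p = 0.13). The lowest of the 11 against Ang II was Tmem261, now named Dmac1, at 0.16 (SE 0.168, adjusted p = 0.628), with overlapping groups. The alternative settings were not run for these 11.

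Of genes deposited under locus names, RefSeq assigns 2 to complex I by accession, Ndufa13 and the assembly factor Ndufaf8. Ndufa13 was at 92.9, 55.4 and 120.3 CPM in saline, 75.4, 73.4 and 83.5 CPM in Ang II, and 80.7, 75.8 and 87.9 CPM in NaBu libraries, with overlapping groups (0.07 for NaBu against Ang II, SE 0.221, adjusted p = 0.883). Ndufaf8 was at 17.4, 11.7 and 16.5 CPM in saline, 17.3, 15.5 and 17.4 CPM in Ang II, and 21.2, 17.1 and 19.3 CPM in NaBu libraries, also with overlap (0.20 for NaBu against Ang II, SE 0.158, adjusted p = 0.496). Ndufb1 and the mitochondrially encoded subunits were sought by symbol and by RefSeq record without a match, so they were not analysed here.

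Other mitochondrial gene lists had medians of similar size. Nuclear subunits of complexes II to V numbered 42, of which 41 were higher on average with NaBu than with Ang II, with a median of 0.31, and 24 were higher without overlap, as were 18.1% of all genes. Mitochondrial proteins outside the respiratory chain (17 genes) were 17 of 17 higher, with a median of 0.39, and 15 were higher without overlap. Both medians lie beside 0.30 for complex I subunits. edgeR called 0 of the 42 and 1 of the 17 (Tomm20, an import receptor of the outer membrane) against Ang II, and 2 of the 42 (Cox6c and Uqcrfs1) and 4 of the 17 against saline, where 0.647% and 3.01% of all genes were called higher. Against saline the medians were 0.30 and 0.48. Regulators of mitochondrial biogenesis (13 genes) had a median of 0.19 against Ang II, with 10 higher and 3 lower on average. Higher without overlap were 4 of the 13, beside 18.1% of all genes, and lower without overlap 2, beside 17.5%. Tfb2m, a mitochondrial transcription factor, rose by 0.58 (SE 0.121, adjusted p = 0.047), while Ppargc1a, the coactivator PGC-1α, differed by 0.37 (SE 0.135, adjusted p = 0.151). The 3 on the lower side, named after their values were seen, were the transcription factor Nrf1 at -0.37 (SE 0.105, adjusted p = 0.0877, without overlap), Polrmt at -0.18 and Ppargc1b at -0.14 (without overlap).

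Cell type markers also differed between the groups. Ventricular cardiomyocyte markers were 15 of 16 higher on average with NaBu than with Ang II, with a median of 0.34. Higher without overlap were 11 of the 16, beside 18.1% of all genes, and lower 0. Their summed levels were 63823 to 103210 CPM in saline, 84411 to 89595 CPM in Ang II and 97293 to 106812 CPM in NaBu libraries. Endothelial markers were 0 of 12 higher, with a median of -0.24 and 1 called lower (Egfl7), beside 148 of all 15467 genes. Lower without overlap were 8 of the 12, beside 17.5% of all genes, and higher 0. They summed to 2228 to 2576 CPM, 2280 to 2593 CPM and 1893 to 2228 CPM. Fibroblast markers were 8 of 12 higher, with a median of 0.16, and summed to 4065 to 6575 CPM, 4053 to 4298 CPM and 3942 to 4811 CPM. Compared with saline, 12 of 12 were lower on average with Ang II (median -0.53) and 12 of 12 with NaBu (median -0.37). Of all 15467 genes, 7881 and 8546 were lower in these 2 comparisons, and edgeR called 0 of the 12 in either. Atrial markers summed to 191 to 6039 CPM, 111 to 201 CPM and 149 to 260 CPM, and among them Sln was at 0 in 5 libraries, and Myl7 and Bmp10 in NaBu replicate 2. Macrophage and lymphocyte markers summed to 228 to 320.4 CPM, 219 to 240.2 CPM and 208 to 234 CPM, with Cd79b at 0 in NaBu replicate 2. Erythroid transcripts summed to 1931 to 2789 CPM, 2623 to 4619 CPM and 2330 to 2935 CPM. They were 8 of 8 higher on average with Ang II than with saline (median 0.72) and 8 of 8 lower with NaBu than with Ang II (median -0.49). edgeR called 0 in either comparison. At an unadjusted p under 0.05 were 7 and 3 of them, beside 918 and 3458 of all 15467 genes. For NaBu against saline, edgeR called 1 higher (Slc4a1, adjusted p = 0.0391), beside 465 of all genes. No other marker was at 0. The part of these markers and of mitochondrial ribosomal RNA in the complex I differences was not tested. In bulk tissue, fewer cells of a type and less RNA per cell cannot be told apart.

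**Figure D4:**
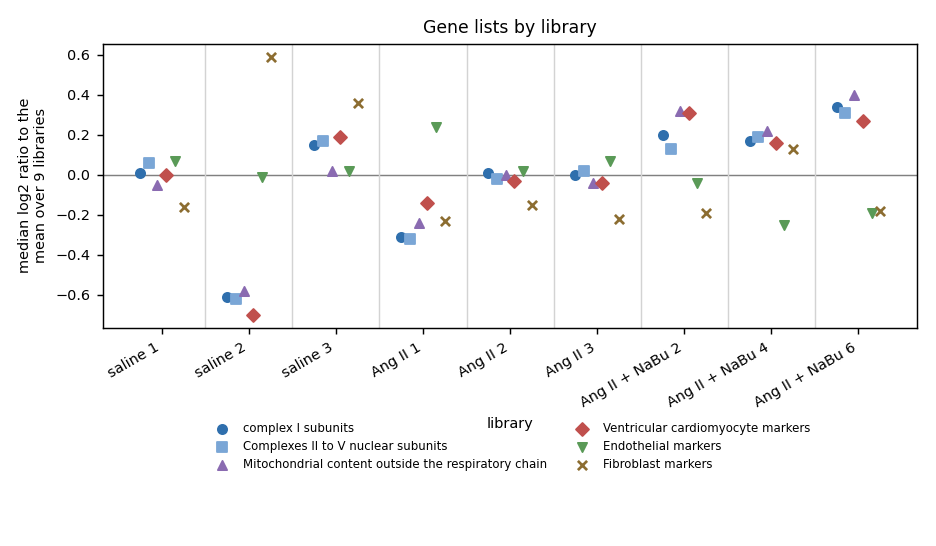
Median log2 ratio to the mean over the 9 libraries (vertical axis) of 6 gene lists in each library (horizontal axis). Complex I subunits (circles), complexes II to V, other mitochondrial genes and ventricular markers lie between -0.70 and -0.58 in saline replicate 2, between -0.32 and -0.14 in Ang II replicate 1 and between 0.13 and 0.40 in the NaBu libraries. Endothelial and fibroblast markers are at -0.01 and 0.59 in saline replicate 2.

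These 4 medians can be set side by side in each library. In saline replicate 2 they were -0.61 for complex I subunits, -0.62 for complexes II to V, -0.58 for other mitochondrial genes and -0.70 for ventricular markers. In NaBu replicate 6 they were 0.34, 0.31, 0.40 and 0.27. They lay further apart in NaBu replicate 2 (0.20, 0.13, 0.32 and 0.31), in Ang II replicate 1 (-0.31, -0.32, -0.24 and -0.14) and in saline replicate 3 (0.15, 0.17, 0.02 and 0.19). These are values of the same libraries and share their depth and scaling.

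The 45 genes were summed from 69 transcript records, 1 record for 31 genes and several for 14. The shares of the records varied by more than 30 percentage points between libraries for Ndufaf1, Ndufaf3 and Ndufa4l2, among others. The main record of Ndufaf1 held 53%, 66.2% and 78.2% in saline, 99.1%, 67.3% and 97.9% in Ang II, and 84.2%, 74.3% and 80.7% in NaBu libraries. The less used record of Ndufaf3 held 4.63%, 0% and 0.756% in saline, 0%, 0% and 14.2% in Ang II, and 31.4%, 18.6% and 16.6% in NaBu libraries. In NaBu libraries this share was above that of every other library, both where the summed level of Ndufaf3 was lowest (NaBu replicates 2 and 4) and where it was highest (NaBu replicate 6). The main record of Ndufa4l2 held 42.1% in NaBu replicate 2 and 75.4% to 99.2% elsewhere. RefSeq also places 9 members over another protein-coding gene, among them Ndufaf3 over Impdh2, Ndufaf1 over Nusap1 and Ndufa4l2 over Shmt2, and 22 have a pseudogene or like-named copy. Use of strand is not given in the sources used here, and reads of such neighbours cannot be told apart.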

How the data were processed

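RNA-seq of 9 left ventricle libraries in 3 groups was read from 3 deposited tables, 1 per group. The authors deposited estimated counts of transcripts. Per the file headers, a record has a gene name and a value per library. A stray line-end character in the last saline column was removed from the otherwise like estimated counts. Values were whole numbers. Per the submitters' processing notes, Bowtie 0.12.2 and the build mm8, a mouse build, were used, while the records are rat RefSeq records. The counting tool, the annotation and the strand setting were not given in the sources used here.

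The 55767 transcripts were summed to 22608 gene names. Groups were compared with edgeR 4.0.16 in R 4.3.3 (quasi-likelihood test, TMM factors from 0.8865 to 1.14, filterByExpr, 3 groups in 1 fit, prior count 0.125, common biological coefficient of variation 0.256), which left 15467 genes. Adjusted p-values are Benjamini-Hochberg over those genes, with calls under 0.05, and the SE is the log2 difference divided by the root of the F statistic. Levels are CPM relative to the TMM-scaled total. DESeq2 1.42.0, other scalings, no filter, the highest transcript, counts divided by 4 (an assumed value of 1 fragment), fits of 2 groups and leaving out libraries were alternatives. The members and lists were chosen with earlier results of these data known. Values in every library are given for called members, core subunits, Nduf assembly factors, Ndufa4 and its paralog, and the 2 subunits at each end of a comparison, and other members by counts or by difference. The values of 1 member are not reported here, while counts and medians include all 45.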

Additional observations from a re-analysis of the deposited data

How the results depend on the processing

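For Ang II against saline, 0 of the 45 genes were called under every alternative. For NaBu against Ang II, edgeR called 0, DESeq2 8 and the fit of 2 groups 16, leaving out 1 library gave 0 to 13, and leaving out saline replicates 2 and 3, chosen after seeing the data, gave 15. Over all genes in this comparison, edgeR called 248, DESeq2 1521 and the fit of 2 groups 1802. Leaving out 1 Ang II or NaBu library gave 0 of the 45, beside only 1 to 5 calls over all genes. Leaving out 1 saline library gave 0 to 13 of the 45, beside 44 to 1482 calls over all genes. For NaBu against saline, edgeR called 1, scaling by total count 3, DESeq2 10, the highest transcript 0 and the fit of 2 groups 0. In the same order, the calls over all genes were 782, 411, 2007, 21 and 9. Leaving out 1 library gave 0 to 7, beside 6 to 1303 calls over all genes. The cause was not tested. The subunit median ran from -0.18 (without saline replicate 2) to 0.19 (without saline replicate 3) for Ang II against saline, from 0.19 to 0.38 for NaBu against Ang II, and from 0.14 to 0.49 for NaBu against saline, again without saline replicates 2 and 3 in turn. Scaling by total count moved the median of all genes for NaBu against Ang II from -0.02 to -0.13 and that of subunits to 0.19, so their distance was 0.33 in both. Over all genes the calls for NaBu against Ang II were 100 higher and 148 lower, 87 and 209 with upper-quartile scaling and 2 and 2 by total count; against saline they were 465 and 317, 383 and 396, and 287 and 124.

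Of 526 values of single genes under alternatives, 474 kept their direction and side of the threshold. Of the 29 gene results behind them, only Ndufaf4 against saline was called in the main fit. For the others, keeping their side meant staying uncalled. The rest of the 526 values crossed the threshold or changed sign. Those that changed sign were, for Ang II against saline, Ndufs6 (-1.49 to 0.26 over single libraries left out, highest without saline replicate 3; 0.52 without saline replicates 2 and 3), Ndufb10 (-0.58 to 0.24, highest without the same library, and 0.01 without both) and Ndufc1 (-0.13 without saline replicates 2 and 3); for NaBu against Ang II, Ndufa6 (-0.10 to 0.06, highest without Ang II replicate 3); and for NaBu against saline, Ndufs6 (-1.40 to 0.36, highest without saline replicate 3, and 0.61 without saline replicates 2 and 3) and Ndufc1 (-0.20 to 0.16, highest without saline replicate 1). With the replicate number as a replicate block, possible for saline and Ang II only, 0 members were called and the subunit median was 0.04; same-numbered libraries did not deviate together (correlations -0.05, -0.056 and -0.014), so the numbers were not taken as pairs. At 1.81 mean CPM, Ndufs6 is the subunit most limited by depth.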
